A study of Bos taurus with 20 samples.

Results

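The genes described here are 8 genes of the NF-kB pathway, NFKBIA, RELA, RELB, NFKB1, NFKB2, RELT, TNFAIP3 and ICAM1, measured in bovine neck muscle. They were found as all array probes whose gene name, or whose symbol in the probe description, is one of these genes under a current or older symbol, which gave 9 of the 21475 probes, for 8 of the 14899 genes named on the array. Of the 8 genes, 6 gave signal well above background on enough arrays to be tested. NFKBIA and RELT had been picked out because of their difference between treated and control animals in these same arrays, so their treatment values are given as a description, with no test.

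The muscle came from 5 treated cows and 5 control cows. Treated animals (DE27, DE29, DE30, DE31 and DE32) had received 0.4 mg of dexamethasone, a synthetic glucocorticoid, by mouth each day for 31 days, and 5 mg of estradiol, an oestrogen, by injection into muscle each week, 6 times. Control animals (K3, K6, K8, K9 and K10) carry no other treatment in the labels. Each animal gave a sample at day 0 and another after 14 days of cold storage under vacuum, so that the 4 groups of treated day 0, control day 0, treated day 14 and control day 14 held 5 arrays each. The 2 agents were always given together, so their effects cannot be told apart. The labels give no age, breed or withdrawal time.

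NF-kB is a family of transcription factors built as pairs of Rel proteins. In resting cells inhibitor proteins such as the product of NFKBIA hold the pairs in the cytoplasm. Signals from cytokine receptors activate a kinase complex that marks the inhibitor for destruction, and the freed pairs enter the nucleus and switch on genes of inflammation and adhesion, together with their own inhibitors. Glucocorticoids are known to dampen this pathway, partly by raising NFKBIA transcription in many cell types.

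All values are log2 of the background-subtracted array signal, set to a common 75th percentile on each array. That percentile was between 716 and 945 signal units in treated day 0 arrays, 654 to 936 in control day 0 arrays, 324 to 450 in treated day 14 arrays and 274 to 533 in control day 14 arrays, so stored samples gave dimmer arrays before scaling. Skeletal muscle fibre markers marked the tissue as labelled, with 9 of 9 measured markers above background on every array of all 4 groups. Their summed signal was 726375 to 1111751 units in treated and 993531 to 1288055 units in control arrays at day 0, and 1340107 to 1972501 units in treated and 996095 to 1286008 units in control arrays at day 14, so the treated day 14 samples stood above all others in it. Whether this bears on the day 14 values of the NF-kB genes was not tested. A difference in signal in whole muscle can come from fewer cells of a type or from less RNA per cell, and these cannot be told apart. Levels of different genes come from different probes and are not set against each other.

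NFKBIA encodes IkB-alpha, the inhibitor that keeps NF-kB in the cytoplasm. Its signal was lower in treated than in control muscle at both days. At day 0 it was 11.33, 11.47, 11.42, 11.55 and 11.55 log2 in treated animals DE27, DE29, DE30, DE31 and DE32, against 13.03, 12.00, 13.23, 13.04 and 13.38 log2 in control animals K3, K6, K8, K9 and K10. Every treated sample lay below every control sample, and K6 was the control nearest to them. At day 14 the same animals, in the same order, gave 11.58, 12.00, 11.28, 11.86 and 11.21 log2 in the treated group and 12.83, 12.68, 13.32, 14.08 and 13.22 log2 in the control group. The groups did not overlap at this day either.

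The mean NFKBIA level was 11.46 ± 0.09 log2 in treated and 12.94 ± 0.54 log2 in control animals at day 0 (SD, n = 5 each), a log2 fold change of -1.47 ± 0.23 (SE), or 2.77-fold lower. At day 14 the means were 11.59 ± 0.35 log2 in treated and 13.23 ± 0.54 log2 in control animals, a log2 fold change of -1.64 ± 0.28, or 3.12-fold lower. The spread among treated samples at day 0 was the smallest of the 4 groups. Of all 15430 tested probes, 2.96% had all treated samples below all control samples at day 0, and 1.1% did so at day 14, which is the background for the missing overlap and supports nothing, since NFKBIA was chosen for this contrast. On the 3 slides that held both treatments at day 0, the NFKBIA difference ranged from -2.05 to -1.04 log2, and on the 3 such slides at day 14 from -2.51 to -0.89 log2.

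RELT encodes a receptor of the tumour necrosis factor receptor superfamily, best known from lymphoid tissues and reported to activate NF-kB in human cell lines. Its signal was higher in treated muscle at day 0, with 11.13, 12.73, 11.38, 11.82 and 10.98 log2 in DE27, DE29, DE30, DE31 and DE32, against 9.88, 8.93, 9.40, 8.83 and 7.80 log2 in K3, K6, K8, K9 and K10. All treated samples were above all control samples. At day 14 the values were 11.60, 13.08, 11.87, 9.03 and 9.55 log2 in the treated animals, against 9.41, 8.24, 9.14, 9.49 and 9.71 log2 in the control animals. After storage only DE27, DE29 and DE30 stayed above every control sample, and DE31 and DE32 lay within the control range.

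The mean RELT level was 11.61 ± 0.71 log2 in treated and 8.97 ± 0.77 log2 in control animals at day 0, a log2 fold change of 2.64 ± 0.41, or 6.23-fold higher. At day 14 it was 11.03 ± 1.69 log2 in treated and 9.20 ± 0.57 log2 in control animals, a log2 fold change of 1.83 ± 0.68, or 3.55-fold higher. The SD among treated samples was larger at day 14, when DE31 and DE32 lay low; their RELT signal changed by -2.79 and -1.43 log2 from their own day 0 samples. Among tested probes, 2.87% had all treated samples above all control samples at day 0 and 1.17% at day 14, and again nothing is read from this for a gene chosen by the contrast. The within-slide difference ranged from 2.49 to 3.33 log2 at day 0 and from -0.16 to 4.10 log2 at day 14.

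**Figure D1:**
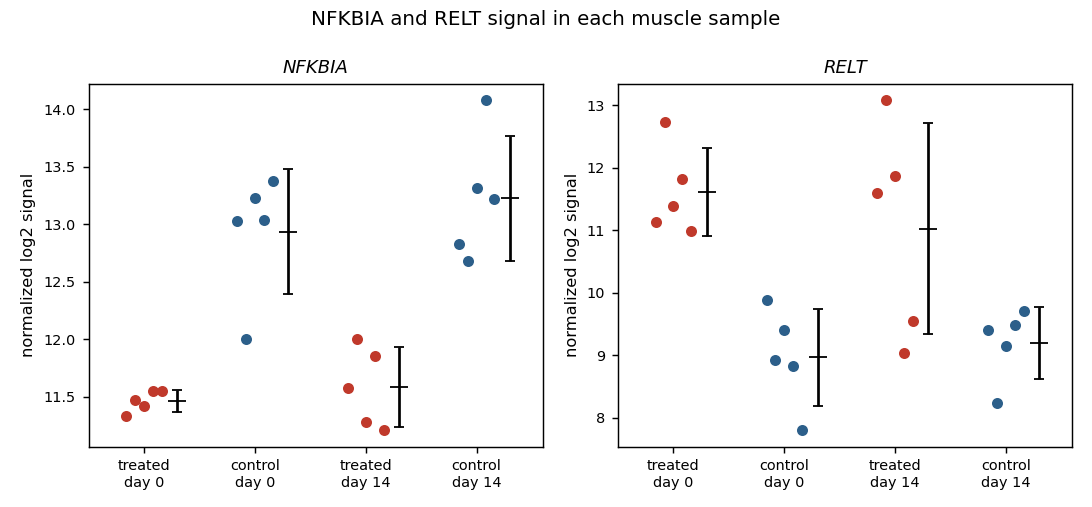
Normalized log2 signal of NFKBIA (left) and RELT (right) in each sample, by group, with the group mean and SD beside the points (n = 5 each; red treated, blue control; vertical axes do not start at 0). NFKBIA lies below the controls at both days, while treated RELT at day 14 splits into 3 samples above 11 and 2 among the controls.

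The Rel subunits are the proteins that bind DNA. RELA carries the main activating function of the classical pathway. RELB and NFKB2 act together in the slower, non-canonical pathway, where the NFKB2 precursor is cut to its active form and pairs with RELB. NFKB1 encodes the usual partner of RELA.

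RELA did not differ detectably between treatments. At day 0 it was 11.32, 11.27, 11.39, 11.49 and 11.30 log2 in DE27, DE29, DE30, DE31 and DE32, against 10.81, 11.16, 11.33, 11.45 and 11.76 log2 in K3, K6, K8, K9 and K10. All treated values fell inside the control range. The log2 fold change was 0.05 ± 0.17 (limma, adjusted p = 0.912), with a 95% interval of -0.33 to 0.43. At day 14 RELA was 11.32, 11.92, 11.27, 11.63 and 11.85 log2 in treated and 11.50, 11.77, 11.80, 11.82 and 11.23 log2 in control animals, a log2 fold change of -0.03 ± 0.20 (limma, adjusted p = 0.974) with an interval of -0.46 to 0.41.

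RELB was higher on average in treated muscle, without passing the threshold of 0.05 on the adjusted p. At day 0 it was 10.55, 10.84, 10.02, 11.21 and 11.12 log2 in DE27, DE29, DE30, DE31 and DE32, against 10.35, 9.83, 9.37, 9.54 and 9.60 log2 in K3, K6, K8, K9 and K10. In 4 of 5 treated animals RELB lay above every control sample, and DE30 lay below K3. The log2 fold change was 1.01 ± 0.26 (limma, adjusted p = 0.0666, interval 0.44 to 1.57). Leaving out DE30 gave 1.19 with an adjusted p of 0.0364 in limma, and leaving out K3 gave 1.16 with an adjusted p of 0.0460. Over the omission of each animal in turn it ran from 0.89 to 1.19, with adjusted p up to 0.160 in limma.

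At day 14 RELB was 10.46, 11.39, 10.61, 11.62 and 11.65 log2 in treated and 10.42, 11.08, 9.92, 10.26 and 9.95 log2 in control animals. The groups overlapped through K6, with 3 of 5 treated samples above it. The log2 fold change was 0.82 ± 0.31 (limma, adjusted p = 0.404, interval 0.15 to 1.49). Within slides it ranged from 0.75 to 1.16 log2 at day 0 and from -0.15 to 1.70 log2 at day 14.

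NFKB2 followed the same order at a smaller size, and did not pass either. At day 0 it was 8.71, 8.51, 8.34, 9.03 and 8.92 log2 in DE27, DE29, DE30, DE31 and DE32, against 8.03, 8.61, 8.38, 8.03 and 8.29 log2 in K3, K6, K8, K9 and K10. The log2 fold change was 0.44 ± 0.18 (limma, adjusted p = 0.234), and 3 of 5 treated samples exceeded all control samples. At day 14 it was 9.24, 9.41, 8.50, 9.51 and 9.57 log2 in treated and 8.56, 8.82, 8.39, 8.52 and 8.52 log2 in control animals. Here 4 of 5 treated samples exceeded all control samples and DE30 did not, with a log2 fold change of 0.69 ± 0.22 (limma, adjusted p = 0.332). DE30 had the lowest NFKB2 signal of the treated group at both days, and the lowest RELB signal of that group at day 0. Within slides the NFKB2 difference ranged from 0.19 to 0.48 log2 at day 0 and from 0.49 to 1.05 log2 at day 14, and that of RELA from -0.43 to 0.28 and from -0.37 to 0.63 log2.

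NFKB1 and TNFAIP3 were on the array but near its background. TNFAIP3 encodes A20, an enzyme that edits ubiquitin chains and shuts the pathway down after activation. NFKB1 was not well above background on any of the 20 arrays, and TNFAIP3 was so on 1, the day 14 sample of K3. Neither was tested, and no fold change is given for them. Signal at background does not tell a low transcript level from a probe that binds poorly.

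ICAM1 encodes an adhesion molecule of endothelial and immune cells and is a classical target of NF-kB. Its signal was low, and lower on average in treated muscle. At day 0 it was 6.19, 6.23, 6.82, 6.32 and 6.06 log2 in DE27, DE29, DE30, DE31 and DE32, against 6.61, 6.39, 7.01, 6.86 and 7.41 log2 in K3, K6, K8, K9 and K10. In 4 of 5 treated animals it was below every control sample, and the log2 fold change was -0.53 ± 0.21 (limma, adjusted p = 0.227), or -0.28 under normexp, a model-based background correction used as an alternative.

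At day 14 ICAM1 was 5.40, 6.06, 6.18, 5.99 and 6.60 log2 in treated and 6.70, 7.68, 6.79, 7.02 and 5.94 log2 in control animals. The sample of DE27 was not well above background, and K10 was the one control sample among the treated values. The log2 fold change was -0.78 ± 0.32 (limma, adjusted p = 0.435), or -0.05 under normexp. Within slides the ICAM1 difference ranged from -1.21 to -0.27 log2 at day 0 and from -1.95 to 0.66 log2 at day 14. A second probe carries the name ICAM1, but its description names PTBP1, a splicing regulator, so it was kept apart: its difference at day 0 was 0.21 ± 0.17 log2 (limma, adjusted p = 0.574) and at day 14 -0.01 ± 0.26 log2 (limma, adjusted p = 0.989).

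**Figure D2:**
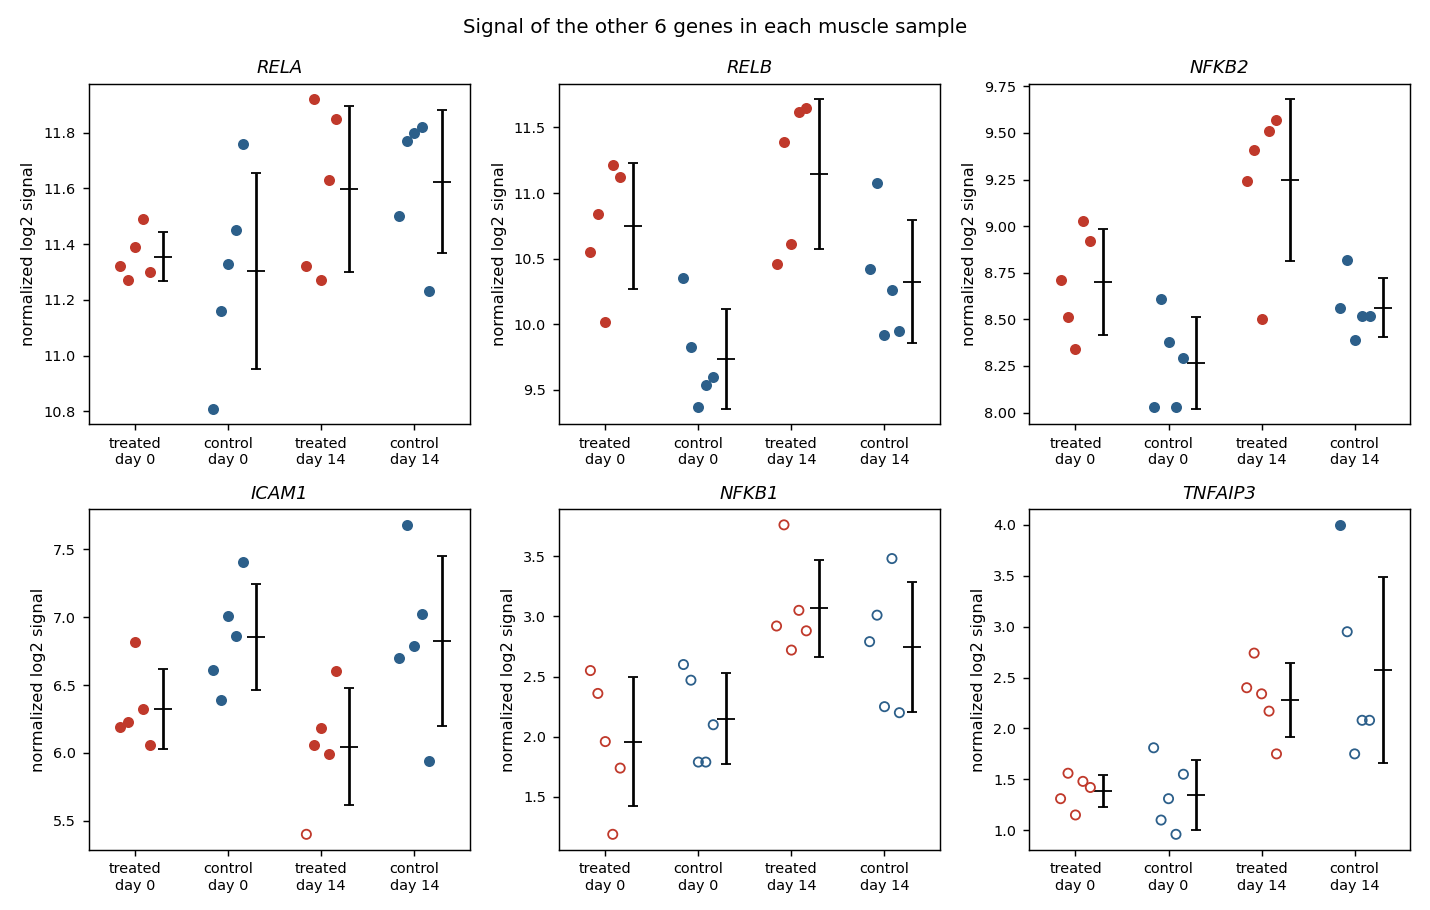
Normalized log2 signal of the other 6 genes in each sample, by group, with the group mean and SD (n = 5 each; red treated, blue control; open points were not well above background; each vertical axis has its own range and does not start at 0). RELB and NFKB2 lie higher on average in treated samples, ICAM1 lower, RELA overlaps throughout, and NFKB1 has open points only.

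With each animal's arrays averaged over both days, ICAM1 fell in treated animals by 0.66 on the log2 scale (SE 0.15, limma, adjusted p = 0.0378), or 1.58-fold lower. Of the 4 genes open to this test, RELA, RELB, NFKB2 and ICAM1, it was the only one that passed, where 3.32% of all tested probes did, 1.38% higher and 1.94% lower. RELB differed by 0.91 ± 0.25 log2 (limma, adjusted p = 0.0719), NFKB2 by 0.56 ± 0.17 log2 (limma, adjusted p = 0.101) and RELA by 0.01 ± 0.13 log2 (limma, adjusted p = 0.972). The ICAM1 call was lost without any one of 8 of the 10 animals, with adjusted p up to 0.0950, and under normexp, where the log2 fold change was -0.17. Without DE30 NFKB2 passed over both days, with a log2 fold change of 0.70 and an adjusted p of 0.0348 in limma. Over the omission of each animal in turn NFKB2 ran from 0.49 to 0.70, with adjusted p up to 0.1985 in limma. RELB and NFKB2 passed in a limma fit of all arrays with the animal as a random block, with adjusted p of 0.0124 and 0.0228, and ICAM1 did not, at 0.0596. That fit used a single correlation for all probes, 0.033, between the arrays of an animal. It thus took those arrays as nearly independent, and its passes do not replace the result with each animal's arrays averaged.

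At a single day, 0 of these 4 genes passed in limma at day 0, where 2.45% of all tested probes passed (1.32% higher, 1.13% lower), and 0 at day 14, where 0.0713% did (0.0259% higher, 0.0454% lower). At an unadjusted p under 0.05 there were 3 of 4 at each day, RELB, NFKB2 and ICAM1, where 17.3% of all tested probes did so at day 0 and 10.5% at day 14. Of all 6 tested genes, 2 passed at day 0 and 0 at day 14, and those 2 are NFKBIA and RELT, for which the count follows from their choice. The median log2 fold change over all tested probes was -0.01 at day 0 and 0.05 at day 14.

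**Figure D3:**
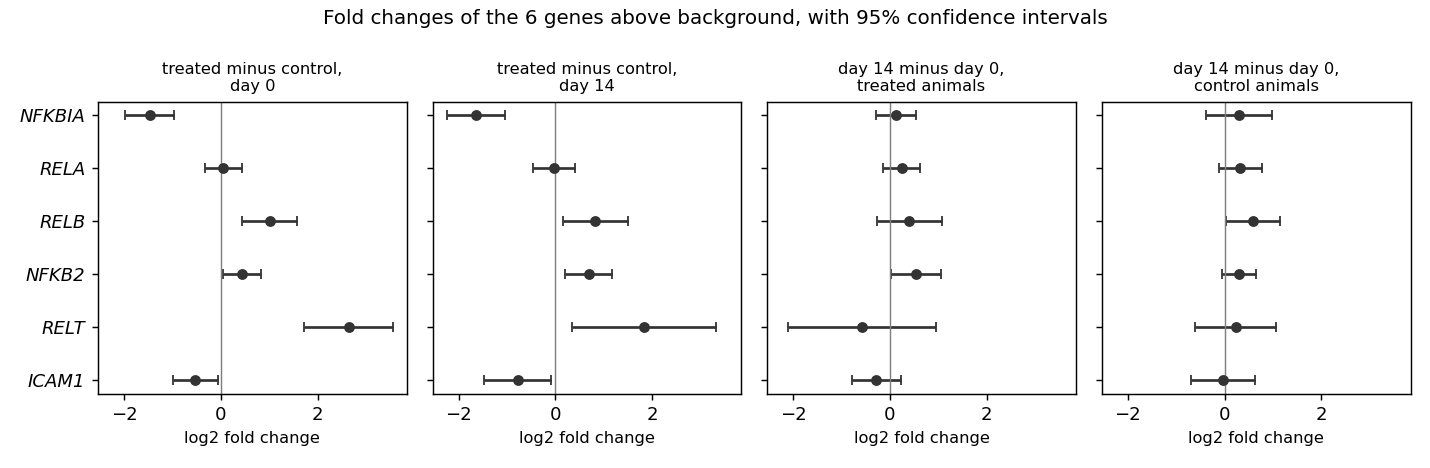
Log2 fold change of the 6 genes above background, with 95% confidence intervals from limma, for treatment at each day (left pair) and for storage in each treatment (right pair; n = 5 per group). The treatment intervals of NFKBIA and RELT are drawn as a description only. Both genes were chosen for that contrast, so whether their intervals hold 0 is no test. The intervals of RELB, NFKB2 and ICAM1 leave out 0 for treatment at both days before any adjustment, that of RELA holds 0 in every panel, and RELT has the widest interval in each panel.

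Storage asks a second question of the same animals, and NFKBIA and RELT were not chosen on it. Their storage changes, and the difference between treatments in these, still come from the arrays on which they were chosen. For NFKBIA and RELT these tests are therefore not independent of that choice. After 14 days 0 of the 6 genes passed in treated animals, where 29.7% of tested probes did, 18.1% higher and 11.6% lower, and 0 in control animals, where 39.2% did, 21.8% higher and 17.3% lower (limma). At an unadjusted p under 0.05 there was 1 gene in each, NFKB2 in treated and RELB in control animals, where 41.8% of all tested probes did so in treated and 49.4% in control animals. The NFKBIA change, day 14 minus day 0, was 0.12 ± 0.19 log2 in treated animals (limma, adjusted p = 0.655) and 0.29 ± 0.31 log2 in control animals (limma, adjusted p = 0.481).

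NFKB2 was higher after storage in all 5 treated and all 5 control animals, by 0.54 ± 0.24 log2 (limma, adjusted p = 0.102) and by 0.30 ± 0.16 log2 (limma, adjusted p = 0.166). RELB was higher in 4 of 5 treated and 5 of 5 control animals, by 0.40 ± 0.31 log2 (limma, adjusted p = 0.349) and 0.59 ± 0.26 log2 (limma, adjusted p = 0.0897). RELA was higher in 3 of 5 treated and 4 of 5 control animals, by 0.24 ± 0.18 log2 (limma, adjusted p = 0.319) and 0.32 ± 0.20 log2 (limma, adjusted p = 0.225). The median of all tested probes also moved up with storage, by 0.11 log2 in treated and 0.09 log2 in control animals. The signals of NFKB1 and TNFAIP3, near background, were higher in 5 of 5 treated and 5 of 5 control animals too. A higher scaled signal in every animal was therefore not particular to NFKB2, and was also seen near background. Stored arrays were dimmer before scaling to the common percentile, and the part of the scaling in these changes was not tested. The share of all tested probes that were higher in every animal was not counted.

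RELT differed most between animals. Its change ran from -2.79 to 0.50 log2 among treated animals and from -0.69 to 1.91 log2 among control animals, and averaged -0.58 ± 0.70 log2 in the treated (limma, adjusted p = 0.556) and 0.23 ± 0.38 log2 in the control group (limma, adjusted p = 0.663). Without DE31 the treated mean change was -0.03 log2, and without K10 the control mean change was -0.19 log2. ICAM1 was lower after storage in 4 of 5 treated and 2 of 5 control animals, with a mean change of -0.28 ± 0.23 log2 in treated (limma, adjusted p = 0.392) and -0.03 ± 0.30 log2 in control animals (limma, adjusted p = 0.947). The probe named both ICAM1 and PTBP1 rose with storage in control animals by 0.71 ± 0.18 log2 (limma, adjusted p = 0.0114), and was 0.48 ± 0.25 log2 higher in treated animals (limma, adjusted p = 0.168).

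The difference between treatments in the storage change was tested directly, with 0 of the 6 genes passing in limma, 0 at an unadjusted p under 0.05, and 0% of all tested probes passing, 3.51% at the unadjusted p. For RELT it was -0.81 ± 0.85 log2 with a 95% interval of -2.59 to 0.97 (-0.26 without DE31, -0.39 without K10), and for NFKBIA -0.17 ± 0.37 log2 with an interval of -0.94 to 0.60. Most slides held 1 storage day. Within the sessions in which arrays of both days were scanned, the NFKBIA storage change ranged from -0.06 to 0.32 log2 in treated and from -0.30 to 0.52 log2 in control animals, and that of RELT from -1.24 to -0.40 log2 in treated and from -1.17 to 1.47 log2 in control animals.

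**Figure D4:**
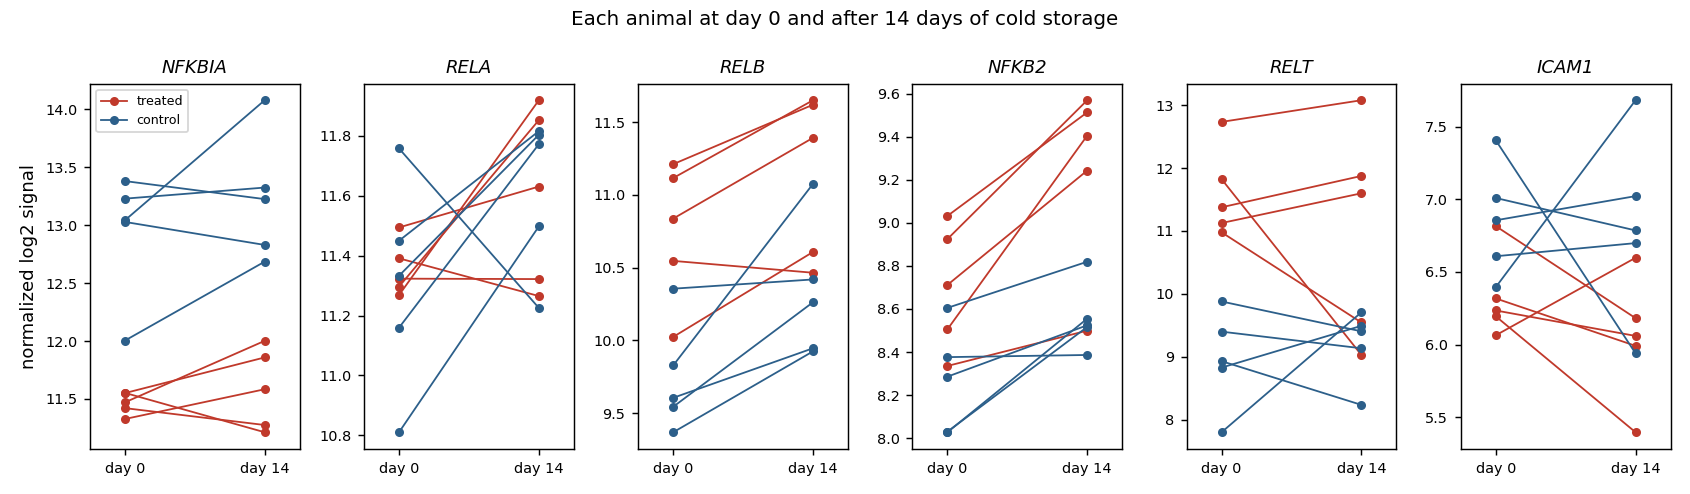
Normalized log2 signal of the 6 genes in each animal at day 0 and day 14, with a line joining the samples of 1 animal (red treated, n = 5; blue control, n = 5; each vertical axis has its own range). NFKB2 goes up in all 10 animals, as do NFKB1 and TNFAIP3 near background (not drawn), and RELT drops steeply in 2 treated animals, DE31 and DE32.

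The wider pathway was read from lists of ligands, receptors, adaptors and kinases, inhibitors, Rel subunits, feedback enzymes and targets, 75 genes besides the 8, of which 59 were tested. These lists were chosen with earlier results of these data known. Passes within them, that of CCL2 included, are therefore not independent of those results. At day 0, 2 of the 59 rose and 1 fell in treated muscle, beside 2.45% of all tested probes, with a median log2 fold change of 0.06. CCL2, a chemokine that draws monocytes, was 10.75 ± 0.93 log2 in treated and 7.29 ± 1.16 log2 in control animals (log2 fold change 3.46 ± 0.58, limma, adjusted p = 0.0161). TNFRSF1B, the second receptor of tumour necrosis factor, was 8.85 ± 0.28 log2 in treated and 8.11 ± 0.20 log2 in control animals (log2 fold change 0.74 ± 0.17, limma, adjusted p = 0.0457).

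TRAF5, an adaptor of tumour necrosis factor receptors, is the gene counted as lower at day 0. It was well above background in 1 of 5 treated and 4 of 5 control samples, and so met the filter largely through the group where it is higher; its call and size are not read. At day 14 1 of the 59 rose, IER3, an early response gene that NF-kB induces, with 13.78 ± 0.25 log2 in treated and 12.48 ± 0.25 log2 in control animals (limma, adjusted p = 0.0355), beside 0.0713% of all tested probes called and 0.0259% called higher. CCL2 was 9.94 ± 1.09 log2 in treated and 7.34 ± 0.89 log2 in control animals at that day, without passing (limma, adjusted p = 0.154). Over the mean of both days CCL2, IER3 and TLR4, the receptor of bacterial lipopolysaccharide, rose, and BCL2L1, a survival gene, fell, beside 3.32% of all tested probes. TRAF5 was also counted as lower, with the limit given for day 0.

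The list of targets had members on both sides of 0. Of 15 tested targets, ICAM1 included, 11 had a log2 fold change above 0 and 4 below at day 0, and 7 above and 8 below at day 14, with medians of 0.36 and -0.14. At an unadjusted p under 0.05 there were 8 of 15 targets at day 0 and 7 of 15 at day 14, 5 of 8 receptors at day 0 and 0 at day 14, and 2 of 19 adaptors and upstream kinases at day 0 and 0 at day 14, where 17.3% and 10.5% of all tested probes did so. Of the 8 receptors 7 were above 0 at day 0, with a median of 0.59. At the adjusted threshold in limma, 0 of the 3 tested genes of the kinase complex (CHUK, IKBKB and IKBKG) passed under treatment at either day, and 0 did at an unadjusted p under 0.05. The same counts held for the 5 other inhibitors and nuclear IkB proteins and for the 3 tested feedback genes. Of the 4 tested ligands 0 passed, with 0 at day 0 and 2 at day 14 at an unadjusted p under 0.05. Of the relatives and kinases of RELT, 3 were tested beside it and 0 passed, with 1 at day 0 and 0 at day 14 at an unadjusted p under 0.05.

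**Figure D5:**
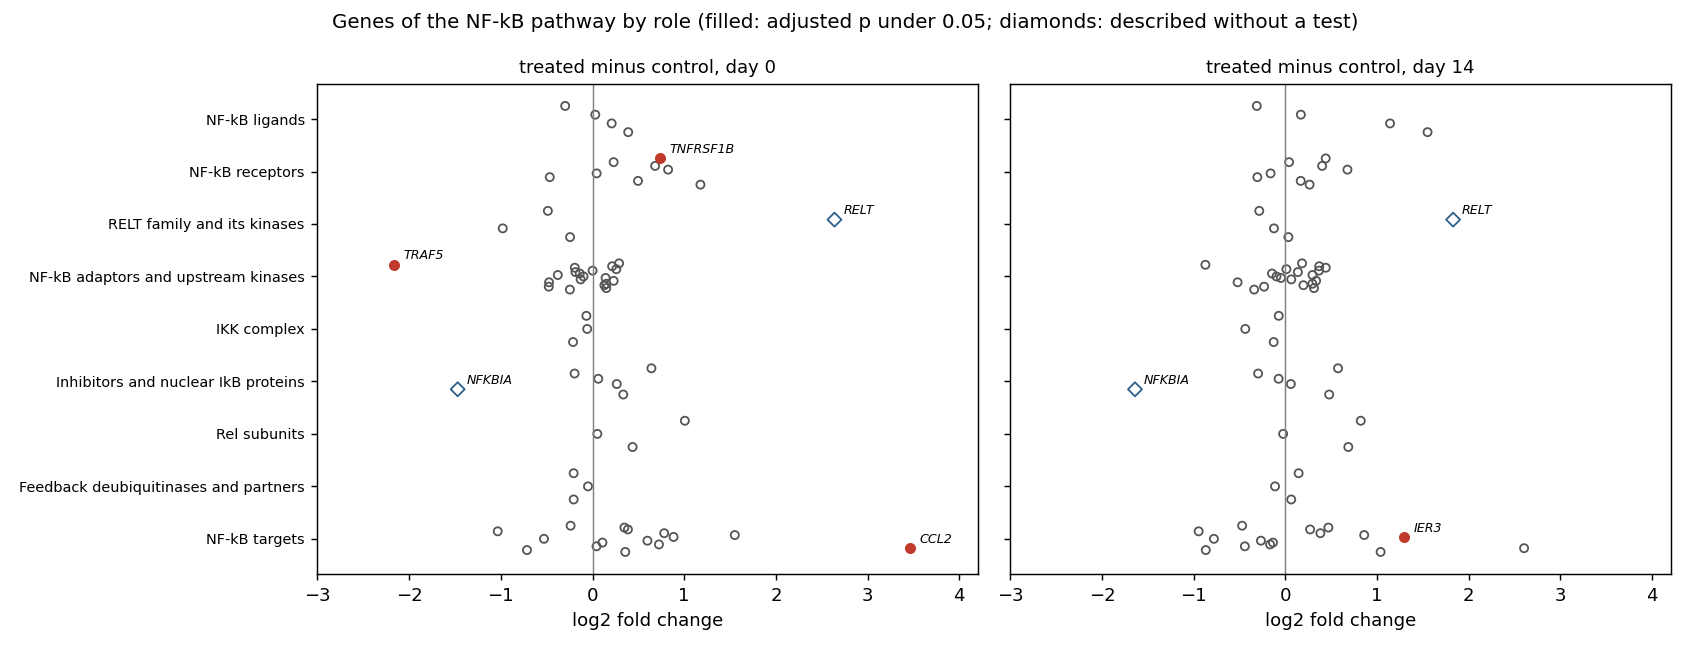
Log2 fold change, treated minus control, of the tested pathway genes at day 0 (left) and day 14 (right), 1 point per gene, in rows by role; filled points passed an adjusted p of 0.05 in limma, and diamonds mark NFKBIA and RELT, given without a test. Most points lie near 0, with CCL2 farthest right at day 0 and IER3 the one filled point at day 14.

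With storage a smaller share of the other pathway genes passed than of all tested probes in both treatments, which was not tested. In treated animals 6 of the 59 rose and 3 fell, with a median of 0.10 log2, and in control animals 12 rose and 5 fell, with a median of 0.17 log2, against 29.7% and 39.2% of all tested probes. TRAF2, an adaptor below tumour necrosis factor receptors, rose by 1.54 ± 0.18 log2 in treated (limma, adjusted p = 0.000288) and by 0.91 ± 0.22 log2 in control animals (limma, adjusted p = 0.00910). MAP3K7, the kinase that activates the kinase complex, and TAB2, its partner, fell in both, MAP3K7 by 0.71 and 0.90 and TAB2 by 0.93 and 0.93 on the log2 scale in treated and control animals. NFKBID, a nuclear IkB protein, rose by 0.84 ± 0.19 log2 in treated (limma, adjusted p = 0.00750) and by 0.97 ± 0.23 log2 in control animals (limma, adjusted p = 0.00722).

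RIPK1, from the list of adaptors and upstream kinases, passed in both treatments without being among the genes of smallest p. It rose by 0.79 ± 0.20 log2 in treated (limma, adjusted p = 0.0150) and by 0.79 ± 0.21 log2 in control animals (limma, adjusted p = 0.0128). The remaining genes with the smallest p passed in 1 treatment. LTA, a ligand, rose by 1.31 ± 0.23 log2 in treated animals, and was 0.38 ± 0.26 log2 higher in control animals. RELL2, a relative of RELT, rose by 1.82 ± 0.34 log2 in treated animals, and was 0.96 ± 0.77 log2 higher in control animals. CSF1, a macrophage growth factor, changed by 0.01 ± 0.51 log2 in treated animals and rose by 0.87 ± 0.20 log2 in control animals. CYLD, a deubiquitinase, changed by -0.47 ± 0.26 log2 in treated animals and fell by 0.74 on the log2 scale in control animals. In the direct test of the difference between treatments 0 of the 59 genes passed in limma, and 3 did at an unadjusted p under 0.05, where 3.51% of all tested probes did.

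Markers of other cells in muscle were read beside these results. Under treatment 0 markers of macrophages, lymphocytes, endothelium, fibroblasts or adipocytes passed in limma at either day, where 2.45% of all tested probes did at day 0 and 0.0713% at day 14. At an unadjusted p under 0.05 there were 2 endothelial and 1 macrophage marker at day 0, and 1 macrophage and 1 lymphocyte marker at day 14. Of all tested probes 17.3% did so at day 0 and 10.5% at day 14. Of 9 tested muscle fibre markers 0 passed at either day, with 3 at day 0 and 2 at day 14 at the unadjusted p. They were above 0 in 3 genes at day 0 and 8 at day 14, with medians of -0.37 and 0.54. In the difference in storage change 9 of the 9 were above 0, with a median of 0.47. There 0 passed and 3 did at the unadjusted p, where 3.51% of all tested probes did. Endothelial markers, from cells that carry ICAM1, were above 0 in 10 of 10 genes at day 0 with a median log2 fold change of 0.35, and in 5 of 10 at day 14 with a median of -0.01. Their summed signal ranged from 21218 to 29566 units in treated and 16180 to 22568 units in control arrays at day 0, and from 33517 to 73342 units in treated and 26666 to 74133 units in control arrays at day 14. With storage 5 of the 10 rose in treated and 8 in control animals, with medians of 0.72 and 1.03 log2, where 18.1% and 21.8% of all tested probes rose.

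Of 9 tested macrophage markers 7 were above 0 at day 0 and 2 at day 14, with medians of 0.18 and -0.34, and ITGAM was not above background on any array. Their summed signal was 1629 to 3674 units in treated and 2282 to 3508 units in control arrays at day 0, and 1248 to 3575 units in treated and 1374 to 4522 units in control arrays at day 14. The 6 tested lymphocyte markers, of a cell type in which RELT is known, had a median of -0.18 at day 0 and -0.37 at day 14, and CD79B was not above background on any array. Their summed signal, over 9 markers on the array, was 542 to 1261 units in treated and 564 to 910 units in control arrays at day 0, and 998 to 1497 units in treated and 926 to 1664 units in control arrays at day 14. Fibroblast markers had a median of 0.04 at day 0 and -0.74 at day 14, with 8 of 8 below 0 at day 14, and adipocyte markers 0.34 and -0.31. With storage 4 of 8 fibroblast markers fell in treated and 4 in control animals, with medians of -1.33 and -0.51 log2. Of 6 lymphocyte markers 1 rose in treated and 3 rose in control animals, and of 9 macrophage markers 1 fell in treated and 1 in control animals. Of 9 muscle fibre markers 5 rose in treated animals, and 1 rose and 2 fell in control animals, with medians of 0.75 and -0.05 log2. Of 5 adipocyte markers 2 fell in treated and 0 in control animals. Beside these storage counts, 18.1% of all tested probes rose and 11.6% fell in treated animals, and 21.8% rose and 17.3% fell in control animals. The part of these cells in the NF-kB values was not tested.

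The genes whose pattern over the 20 arrays was nearest to NFKBIA, by the root mean square difference of mean-centred log2 values among 11241 genes, were RASD1 at 0.391, RASGEF1B at 0.402, HPCAL1 at 0.451, RGCC at 0.485 and CDC42EP4 at 0.486, against a median of 1.02. All 5 had lower means in treated animals at both days, which follows from their choice as nearest to NFKBIA and supports nothing. RASD1, nearest, averaged 9.84 log2 in treated and 11.22 log2 in control animals at day 0, and 9.91 log2 in treated and 11.20 log2 in control animals at day 14. For RELT, LYSMD2 at 0.721, SYTL3 at 0.807, PRKAG2 at 0.822, ACOX2 at 0.832 and RETREG1 at 0.833 came first, against a median of 1.55. RELT itself varied more over the arrays, with a root mean square of 1.47 log2 about its mean, against 0.873 log2 for NFKBIA. The distance grows with that spread, so NFKBIA and RELT are not set against each other by it. LYSMD2 averaged 7.81 log2 in treated and 5.98 log2 in control animals at day 0, and 7.90 log2 in treated and 6.23 log2 in control animals at day 14. These distances, and the group means of genes chosen by them, describe likeness only.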

How the data were processed

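RNA of 20 neck muscle samples was measured on single-colour bovine oligonucleotide arrays, design 015354, and extracted with Feature Extraction 9.5.1.1, per the file headers. The deposited intensity per spot is the processed signal, which is background-subtracted and detrended, per the labels. A further deposited table gives linear intensity for the whole series, normalized by a method not given in the sources used here, whose columns correlated with the array files at 0.9986 or more. It served as an alternative, and has column medians of 6.59 to 7.34 on the log2 scale. Other per-spot marks in the deposited files, set for outlying spots and for signal well above background, were used as filters. The submitters' processing notes name R 2.11.1.

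After log2, the 75th percentile of every array was brought to a common value. Control spots (1417 per array) and 935 outlier spots were left out, and spots of a probe were averaged. A probe was tested when well above background on at least 5 of 20 arrays (15430 probes). For a gene with several probes, the one of highest mean signal was used. Probes were named through gene number (9803), accession (3350), a symbol (389) or a symbol in the description (2919), by a RefSeq list of assembly ARS-UCD2.0, and 285 with conflicting names stayed unnamed. Arrays give no counts, so their number limits the precision. No sequence or position is printed.

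The comparisons were two-sided tests in limma 3.58.1 (lmFit, then eBayes; R 4.3.3, statmod 1.5.0, data.table version 1.17.8), fitted on the groups compared only. P-values were adjusted by Benjamini-Hochberg over all tested probes, with a threshold of 0.05. For the mean of both days each animal's arrays were averaged first, and the difference in storage change used all 20 arrays. On data simulated for the day 0 treatment comparison and for storage in control animals, the procedure was tested for recovery of known changes. The outcome is not given here, and nothing is read from it for the genes described. Tables were built in pandas 2.3.3 (numpy 2.4.6, scipy 1.17.1, Python 3.11.15) and plotted in matplotlib 3.10.9.

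Treatment and day came from titles and characteristics. A free-text description that contradicts the titles on the day was not used, and a treated day 0 title with a shortened name was read as DE31. The same number at both days was read as the same animal, so the numbers pair the samples. The deviations of an animal's 2 arrays correlated between -0.15 and 0.28, over 0.1 in 5 of 10 animals. In those 5 animals this exceeded the highest correlation with another animal of the same treatment, and in the other animals it did not (K9, -0.08 against 0.36). The main storage tests did not use the pairing, and fits with the animal as a block were alternatives.

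The members, the pathway and marker lists and the tests were chosen with earlier results of these data known. All 8 members were named, and of the other listed genes those that passed in a comparison, at most 6 by smallest p. RIPK1 was named besides, since it passed for storage in both treatments. For NFKBIA and RELT, the 5 nearest genes by root mean square difference were named. Alternatives changed the background correction, normalization, filter, value table, slide, scan session and probe choice, added the animal as a block, or left out each animal.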

Additional observations from a re-analysis of the deposited data

Results flagged for a closer look

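In control muscle at day 0 the NFKBIA signal of K6, 12.00 log2, stood apart from the other 4 control samples, which lay between 13.03 and 13.38 log2. Its gap to the next sample was 0.744 of the group's range, above the 95% critical value of Dixon's test for 5 samples. Of 27 groups of values examined 1 stood out so, where chance gives about 1 in 20. The count is therefore near the share that chance gives. The treated minus control difference of NFKBIA at day 0 has its range without each animal, K6 included, under the dependence on processing.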

How the results depend on the processing

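The number of animals and, for ICAM1, NFKB1 and TNFAIP3, signal near background limit these results. Slides 5 and 6 alone hold both days, so storage within slides rests on few arrays. The number of the 6 genes passing, in which NFKBIA and RELT under treatment follow from their choice and are no test, was 2 at day 0, 0 at day 14, 3 over the mean of both days and 0 for storage in either treatment and for its difference. It became 1 at day 14 in a fit of the 20 arrays with a random replicate block for the animal (NFKBIA), 1 for storage in control animals with the scan session as a block (RELB), and 1 for storage in treated animals under normexp (ICAM1, at 0.75, opposite in sign to its main value). Without each animal in turn it was 2 to 3 at day 0, 0 to 0 at day 14, 1 to 3 over both days, 0 to 1 for storage in control animals, 0 to 1 in treated animals and 0 to 0 for the difference. The lowest count over both days was without K9. RELA passed for storage in control animals without K10 (0.53), and NFKB2 in treated animals without DE30 (0.64). The animal as a fixed replicate block left the count at 0 for storage in both treatments and for the difference. NFKBIA at day 0 ranged from -1.70 to -1.36 log2 without each animal. RELB and NFKB2 over both days passed with the scan session as a block (0.89 and 0.56), in a fit of all arrays with the animal as a random block. ICAM1 over both days missed the threshold with all probes kept (-0.66), the slide (-0.70) or scan session (-0.65) as a block, and as the mean of its probes (-0.28), which brings in the probe described as PTBP1. Of the values of single genes under another setting, 294 kept direction and side of the threshold, 6 lost the call, 6 gained one and 18 changed sign; without each animal these were 268, 10, 5 and 17.

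Sign changes touched RELA under treatment, NFKBIA, RELA, RELT and ICAM1 under storage, and NFKBIA, RELA, RELB and ICAM1 in the difference in storage change; the cause was not tested. RELA under treatment was -0.01 at day 0 with the scan session as a block, and over both days -0.03 under normexp, -0.01 under quantile normalization, -0.02 in the authors' series table and -0.00 with the slide as a block. Without each animal it ran from -0.07 to 0.17 at day 0, -0.12 to 0.06 at day 14 and -0.06 to 0.06 over both days. Storage in control animals gave NFKBIA -0.30 and RELA -0.11 with the slide as a block, and ICAM1 0.51 under normexp and 0.34 as the mean of its probes, PTBP1 probe included. Without each animal RELT ran from -0.19 to 0.46 and ICAM1 from -0.36 to 0.33 there. Storage in treated animals gave, under normexp, NFKBIA -0.26, RELA -0.08 and ICAM1 0.75, with the slide as a block NFKBIA -0.34 and ICAM1 0.53, and as that mean ICAM1 0.10. For the difference in storage change, RELB was 0.01 and ICAM1 0.23 under normexp, and RELA 0.02 with the scan session as a block; without each animal NFKBIA ran from -0.29 to 0.02, RELA from -0.29 to 0.01 and ICAM1 from -0.61 to 0.08.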
